A study of Mus musculus with 36 samples.

Results

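The nuclear genes for subunits of the mitochondrial respiratory chain and ATP synthase were followed in mouse lung and liver. They were taken by symbol, as every gene whose name starts with Nduf followed by a, b, c, s or v and a digit, the genes Sdha to Sdhd, every gene starting with Uqcr, with Cox4 to Cox8, or with Atp5. This gave 84 of the 20098 genes in each file, 37 of complex I, 4 of complex II, 8 of complex III, 18 of complex IV and 17 of complex V. RNA came from male wild-type C57BL/6J mice, aged 14 weeks when exposure began and kept 5 to a cage. The ND state was the AIN93G purified diet. The DIO state was a 45% high-fat diet, given for 6 weeks before exposure and throughout it. The T1D state was made with intraperitoneal streptozotocin at 50 mg/kg on 5 consecutive days, a toxin of the insulin-producing beta cell, in mice on normal diet. Mice of each state then spent 4 weeks in filtered air (groups NDC, DIOC and T1DC) or in real-ambient PM2.5, fine airborne particles (groups NDE, DIOE and T1DE). Each group had 3 lung and 3 liver libraries, 36 libraries in all, and the sample labels do not tie a lung to a liver of the same mouse. The libraries are whole tissue, in which fewer cells of a type and less RNA per cell cannot be told apart.

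Complex I oxidises NADH and complex II, succinate dehydrogenase, oxidises succinate; both pass electrons to ubiquinone. Complex III hands them to cytochrome c, complex IV (cytochrome c oxidase) hands them to oxygen, and complex V uses the resulting proton gradient to make ATP. Most subunits are nuclear-encoded and serve in every cell, while a few complex IV subunits have isoforms made in particular tissues. Cox6a2, Cox7a1 and Cox8b are the heart and skeletal muscle isoforms, the last pair also used by brown fat, whose mitochondria burn fuel for heat. Cox4i2 is an isoform known from lung and smooth muscle, and Cox6b2, Cox7b2 and Cox8c are known from testis. The protein of Ndufa4, named for complex I, is now placed in complex IV, and Ndufa4l2 is its hypoxia-induced relative. Atp5sl and Atp5s fall under the symbol rule although RefSeq names them Dmac2 and Dmac2l, the former an assembly factor of complex I.

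The start-site regions printed here, shown because the results turn on a contrast of broadly used and tissue-restricted subunits, cover the 160 bases before the start of Cox6a1 (chr5:115348959-115349118, minus strand), Cox8a (chr19:7217617-7217776, minus strand), Cox7a1 (chr7:30184011-30184170, plus strand), Cox8b (chr7:140900447-140900606, minus strand) and Sdhb (chr4:140961111-140961270, plus strand). They are RefSeq sequences of build GRCm38.p6, written 5′ to 3′ along the gene. Capitals mark the core letters GCGCATG of the motif of NRF1, an activator of respiratory genes, and the core CCGGAAG of the ETS motif read by GABPA, on either strand.
Cox6a1: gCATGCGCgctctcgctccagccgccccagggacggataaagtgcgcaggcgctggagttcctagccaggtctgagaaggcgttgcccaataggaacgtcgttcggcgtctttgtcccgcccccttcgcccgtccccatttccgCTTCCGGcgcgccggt
Cox8a: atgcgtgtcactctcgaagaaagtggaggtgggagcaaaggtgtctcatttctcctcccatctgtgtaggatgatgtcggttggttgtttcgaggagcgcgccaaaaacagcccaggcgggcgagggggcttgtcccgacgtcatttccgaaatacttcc
Cox7a1: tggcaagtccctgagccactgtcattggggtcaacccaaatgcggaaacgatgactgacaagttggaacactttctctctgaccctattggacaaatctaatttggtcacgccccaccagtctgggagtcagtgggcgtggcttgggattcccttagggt
Cox8b: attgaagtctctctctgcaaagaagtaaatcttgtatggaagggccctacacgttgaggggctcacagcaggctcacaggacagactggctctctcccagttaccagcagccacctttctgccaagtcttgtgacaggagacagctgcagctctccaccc
Sdhb: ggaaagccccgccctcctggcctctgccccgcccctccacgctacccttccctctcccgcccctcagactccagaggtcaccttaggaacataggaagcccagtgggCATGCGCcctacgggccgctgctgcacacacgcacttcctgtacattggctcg
Cox6a1 and Cox8a are the broadly used partners of Cox6a2 and Cox8b, and Sdhb is a subunit that was called in liver. Cox6a1 holds both cores and Sdhb holds the NRF1 core in the stretch shown, and Cox7a1, Cox8a and Cox8b hold neither there. A promoter region of 250 bases before and 50 bases after the start was on hand for 69 of the 84 subunits. The NRF1 core stood in 13 of these 69 (18.8%), against 4.41% of the 27025 genes with such a region and 5.78% of the 15997 of them that are in the expression files. The ETS core stood in 16 of 69 (23.2%), against 9.93% and 13.8%. At least 1 of the cores was found for 23 of 69 subunits (33.3%), against 18.4% of the genes with such a region in the expression files. Atp5k, Atp5l, Cox6a1, Ndufb6, Sdhb and Uqcr11 held both. In Cox8a the ETS core lies across the start and is not in the stretch shown. TATAAA on the gene's own strand, looked for within 50 bases before the start after the sequences had been seen, stood in 0 of 69 subunits and in 3.15% of all genes. Such matches describe letters and are not evidence of binding.

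Levels are given as FPKM, fragments per kilobase of transcript scaled to the mapped fragments of the library, a unit that allows levels to be set side by side between genes. Together the 84 subunits took 1.41% to 2.55% of the FPKM sum of a lung library and 1.98% to 3.14% of that of a liver library. In lung, 80 subunits had a mean of 10 FPKM or more over the 18 libraries and 68 had 50 or more; in liver these counts were 75 and 70. Cox7b2 and Cox8c, the testis isoforms, never exceeded 0.12 FPKM in a library of either tissue and were not tested. Cox4i2, Cox6a2 and Cox8b were below the test's minimum in liver as well.

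**Figure D1:**
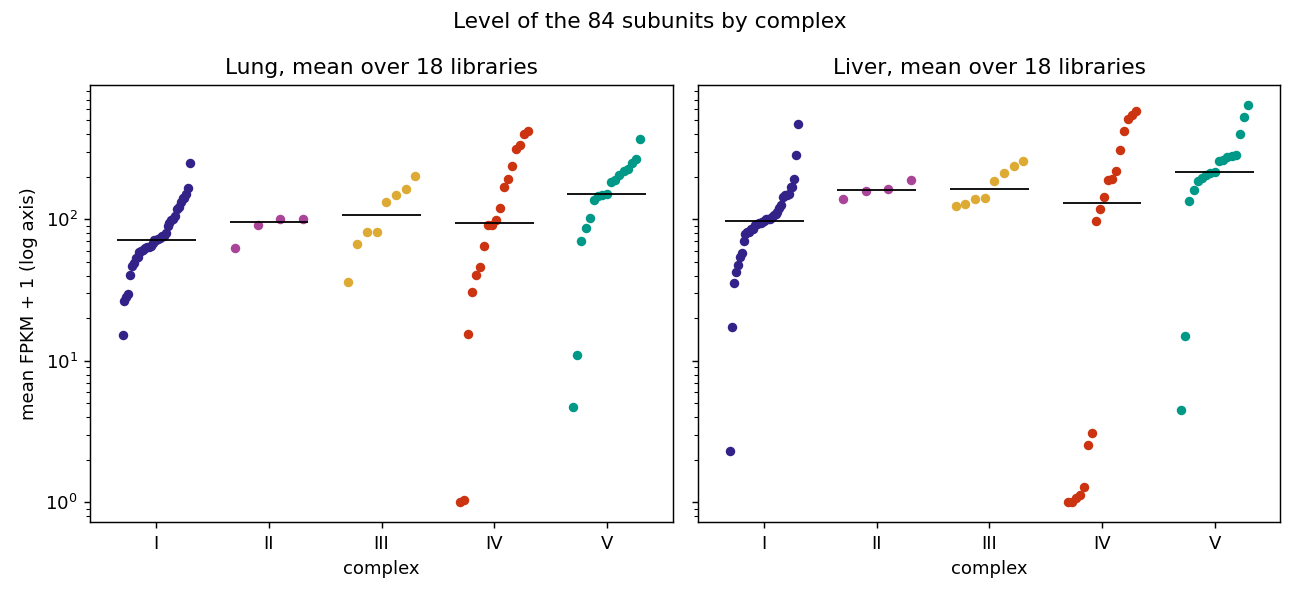
Mean FPKM + 1 of each of the 84 subunits over 18 lung (left) and 18 liver (right) libraries, on a log axis, by complex as the symbol gives it; each point is a gene and the line is the median of the complex. Medians run from 70.7 (complex I) to 151 FPKM (complex V) in lung and from 96.6 to 216 FPKM in liver, and the points near the bottom of complex IV are the tissue isoforms.

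Complex V had the highest median level in both tissues, 151 FPKM in lung and 216 in liver, and complex I the lowest, 70.7 and 96.6. The catalytic beta subunit of complex V, Atp5b, stood first of all members in liver (642 FPKM) and behind Cox4i1 and Cox6a1 in lung (365). The lowest genes placed in complex V by symbol were Atp5s and Atp5sl (3.75 and 9.94 FPKM in lung). Among genes placed in complex I by symbol the highest was Ndufa4 (248 FPKM in lung, 473 in liver), whose protein is now placed in complex IV. Ndufa11, an accessory subunit, was lowest in lung at 14.3. The 4 subunits of complex II lay close together, from Sdhd (61.7) to Sdhb (100.1) in lung and from Sdhd (138) to Sdhb (189) in liver. In complex III the highest member was Uqcrh in lung (199.9) and Uqcr11 in liver (257), and the lowest were Uqcrq (34.9) and Uqcrc2 (123). Complex IV spanned the widest range, from Cox8c to Cox4i1 (422 FPKM) in lung and Cox6a1 (584) in liver.

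The c subunit of the ATP synthase rotor, made as the same mature protein from Atp5g1, Atp5g2 and Atp5g3, drew on different genes in the tissues. In lung, Atp5g2 (204 FPKM) and Atp5g3 (183) led and Atp5g1 stood at 69.5. In liver, Atp5g3 stood at 528, above Atp5g1 (205) and Atp5g2 (185). Reads shared by near-identical copies, among them the many processed pseudogenes of this gene class, were allotted by the authors' program, so such levels carry that uncertainty.

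The lung and liver of mice in filtered air on normal diet differed in many subunits. The level of most was lower in lung, and a handful of isoforms was higher. A subunit was called where limma's Benjamini-Hochberg adjusted p was under 0.05 and the fold of FPKM + 1 over 1.5. In Lung NDC against Liver NDC, 7 of 82 tested subunits were called higher and 36 lower. Among all 14384 genes tested, 68% were called higher in lung and 11.1% lower, so the share of subunits called lower (43.9%) stands against a background of 11.1%. The median log2 difference was -0.53 over the subunits and 1.08 over all genes. With median-ratio scaling the all-gene median moved to 0.14, the subunit median to -1.84 and the calls to 5 higher and 75 lower. The background of 11.1% belongs to the unscaled fit, and no share of all genes is given for these counts. Lung and liver files hold separate tissues prepared as separate libraries, and tissue and preparation cannot be told apart.

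Cox4i2 was the subunit with the largest tissue difference. It read 46.8, 39.6 and 35.4 FPKM in the 3 lung NDC libraries and 0.08 in each liver NDC library, a log2 difference of 5.26 ± 0.17 (SE) on the log2(FPKM + 1) scale, adjusted p = 4.43e-21. Ndufa4l2 read 28.1, 28.6 and 23.9 in lung against 1.26, 1.5 and 1.43 in liver, with a difference of 3.54 ± 0.16. Cox6b2, the testis isoform, read 14.4, 10.97 and 12.3 in lung against 1.56, 0.24 and 0.71 in liver, a difference of 2.94 ± 0.31. No lung library overlapped a liver library in these 3 genes. The muscle isoforms Cox6a2 (5.07 ± 0.39), Cox8b (4.89 ± 1.09) and Cox7a1 (2.60 ± 0.91) were also called higher in lung. The seventh, Cox7a2l, a factor that joins complexes III and IV into supercomplexes and is shortened in C57BL/6 strains, read 187, 212 and 202 in lung against 99.96, 111 and 86.1 in liver. Its difference of 1.02 ± 0.09 turned to -0.31 with median-ratio scaling, and Cox7a1 was no longer called with median-ratio or quantile scaling (adjusted p = 0.106 with the former). Without lung NDC replicate 2, Cox7a1 was not called either. That library and lung NDC replicate 1 moved the counts most, to 6 higher and 50 lower without replicate 2 and to 7 higher and 23 lower without replicate 1. These counts too are given without a share of all genes.

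All 4 subunits of complex II were called lower in lung, as were 6 of 8 of complex III, 8 of 17 of complex V, 14 of 37 of complex I and 4 of 16 tested of complex IV. Uqcrq, the small ubiquinone-binding subunit of complex III, read 26.7, 39.0 and 30.03 FPKM in lung against 144, 137 and 130 in liver, a log2 difference of -2.08 ± 0.23 (limma adjusted p = 1.81e-09). Atp5g3 differed by -1.55 ± 0.12, Atp5g1 by -1.41 ± 0.18, Sdhd by -1.31 ± 0.20, Uqcrfs1, the Rieske iron-sulfur protein, by -1.26 ± 0.25 and Ndufa4 by -1.14 ± 0.24. Of the broadly used isoforms, Cox7a2 was called lower in lung (-0.81 ± 0.19), and Cox4i1 (-0.38), Cox6a1 (-0.52), Cox6b1 (-0.39) and Cox8a (-0.32) were not called. With median-ratio scaling all of them were called lower, Cox7a2 at -2.13 and the others between -1.85 and -1.65. With quantile scaling Cox7a2 was called lower (-0.72), and Cox4i1 (-0.21), Cox6a1 (-0.36), Cox6b1 (-0.07) and Cox8a (-0.08) were not called. Differences among these isoforms were not tested.

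**Figure D2:**
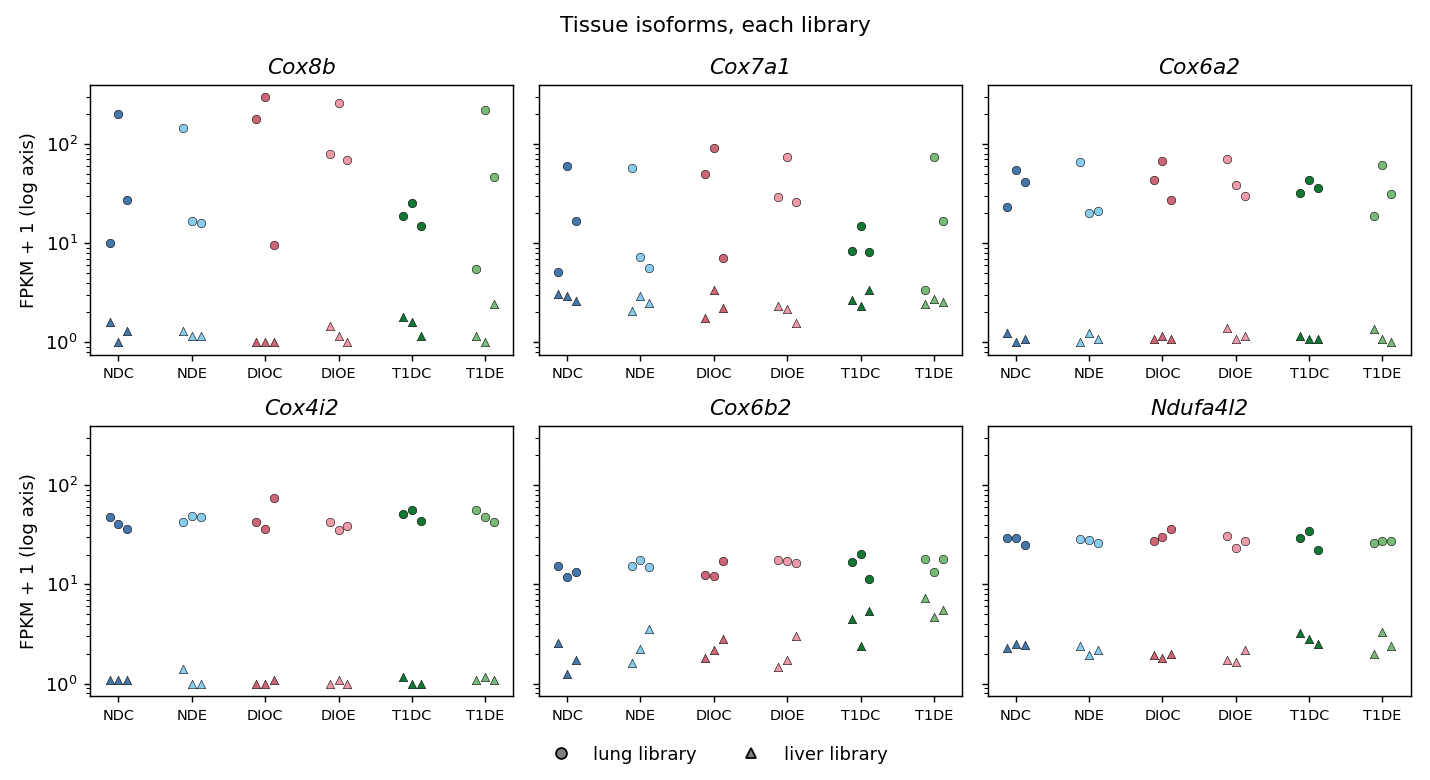
FPKM + 1 on a log axis of 6 tissue isoforms in each library, by group, circles for lung and triangles for liver, with the 3 libraries of a group set side by side in replicate order. In lung, Cox8b spans 4.53 to 295 FPKM and Cox7a1 2.35 to 89.4, while Cox4i2 (34.0 to 73.3), Cox6b2 (10.4 to 19.3) and Ndufa4l2 (21.0 to 35.2) lie close together.

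Among the 18 lung libraries the muscle and brown fat isoforms varied more than the other subunits, and Cox8b and Cox7a1 far more. For Cox8b and Cox7a1 libraries of the same group were often far apart. Cox8b read 9.14, 198 and 26.0 FPKM in NDC, 142, 15.8 and 14.8 in NDE, 175, 295 and 8.56 in DIOC, 78.0, 259 and 68.05 in DIOE, 17.9, 24.3 and 13.8 in T1DC, and 4.53, 219 and 45.9 in T1DE, in replicate order. Libraries of NDC, NDE, DIOC and T1DE were far apart within their group, while the 3 DIOE libraries were all at 68.05 or above and the 3 T1DC libraries all at 24.3 or below. Cox7a1 read 4.07, 59.3 and 15.8 in NDC, 55.9, 6.19 and 4.65 in NDE, 49.3, 89.4 and 6.01 in DIOC, 28.1, 72.4 and 25.2 in DIOE, 7.34, 13.8 and 7.09 in T1DC, and 2.35, 73.6 and 15.8 in T1DE. The same libraries were high as for Cox8b. Over all 18 lung libraries, the highest over the lowest came to 65.1-fold for Cox8b, 38.05-fold for Cox7a1 and 3.88-fold for Cox6a2. These were the only 3 of 82 subunits above 3-fold; the median was 2.0-fold, against 1.55-fold over the 6982 lung genes with a mean of 10 FPKM or more. Cox4i2 (2.15-fold), Cox6b2 (1.86-fold) and Ndufa4l2 (1.68-fold) did not share that spread.

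Markers of brown adipocytes, cardiac muscle and skeletal muscle differed between the same lung libraries. Ucp1, the uncoupling protein that defines brown fat, ran from 0.03 to 373 FPKM, Cidea from 1.24 to 134, the atrial light chain gene Myl7 from 21.7 to 287 and the skeletal actin gene Acta1 from 0.17 to 498. All 5 brown adipocyte markers, all 10 cardiac markers and 15 of 16 skeletal markers passed the lung filter. The mean log2(FPKM + 1) over the brown markers ran from 0.35 to 4.97, over the cardiac markers from 3.00 to 6.62 and over the skeletal markers from 1.03 to 5.90. General adipocyte markers ran from 2.15 to 6.19 and squamous epithelium markers from 0.46 to 6.28. Alveolar type 2 cell markers, which define lung, stayed between 8.85 and 9.55, and hepatocyte markers in liver between 11.5 and 11.9. Within lung, hepatocyte markers ran from 1.02 to 4.99, leukocyte markers from 5.43 to 7.51, red cell markers from 7.54 to 9.55 and ciliated cell markers from 3.94 to 4.82. Genes listed at 0 numbered 1796 to 3520 in the lung libraries.

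The broadly used subunits moved with these libraries as well. The mean log2(FPKM + 1) over the 76 subunits that were tested in both tissues and are not tissue isoforms ran from 6.16 in T1DE replicate 1 to 7.05 in T1DE replicate 2, of the same group. The 6 lung libraries with the highest subunit mean were DIOC replicates 1 and 2, T1DE replicate 2, DIOE replicate 2, NDE replicate 1 and NDC replicate 2. These were also the 6 with the highest brown adipocyte mean and the 6 with the highest Cox8b and Cox7a1, and 5 of them were among the 6 highest in the cardiac mean and 3 among the 6 highest in the skeletal mean. For the general adipocyte mean this count was 5, and for the squamous epithelium mean 3. NDE replicate 1 was high in the brown (4.02) and cardiac (6.62) means and low in the skeletal mean (1.93), with a subunit mean of 6.87. The 3 T1DC libraries were low in the brown mean (0.45 to 0.79), between 4.11 and 5.57 in the skeletal mean, and between 6.24 and 6.41 in the subunit mean. For Cox6a2, 5 of its 6 highest libraries were among the 6 highest in the cardiac mean and 4 among the 6 highest in the brown mean. For Cox4i2 and Cox6b2, 1 of the 6 was among the 6 highest in the brown mean. The libraries share their FPKM scale and these counts carry no test.

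**Figure D3:**
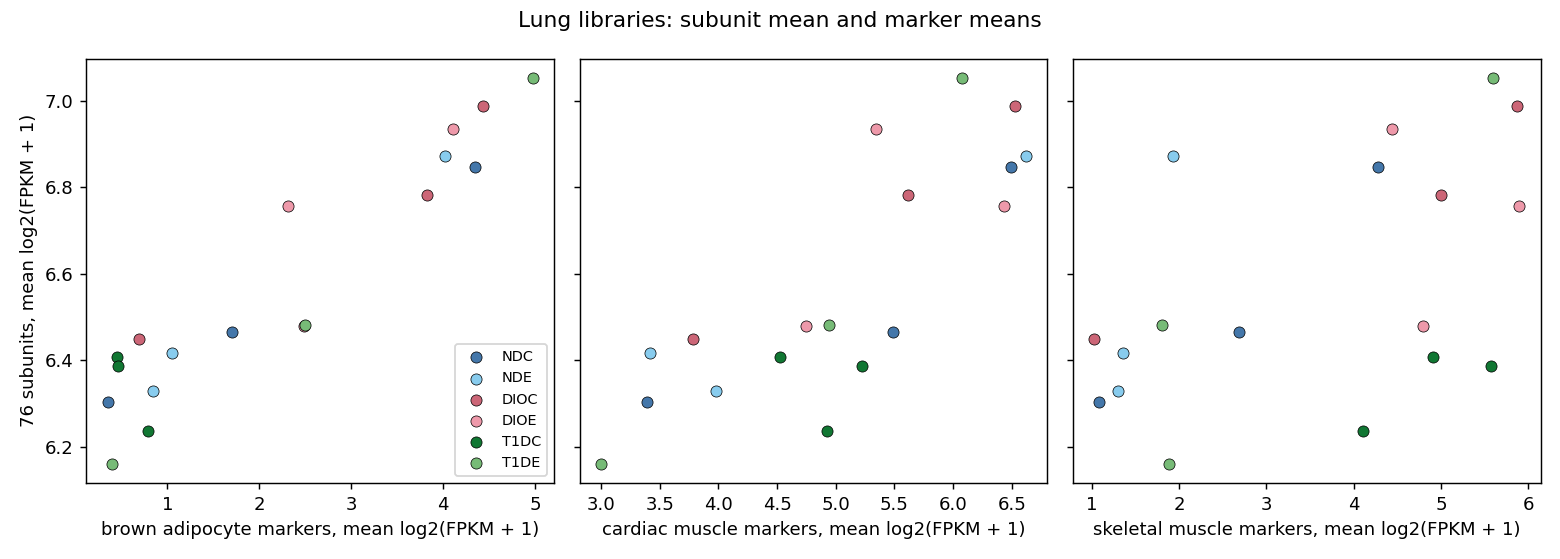
Mean log2(FPKM + 1) of the 76 broadly used subunits (vertical axis) against the mean over brown adipocyte, cardiac muscle and skeletal muscle markers (horizontal axes, log2(FPKM + 1)), each point a lung library coloured by group. The 6 libraries with the highest subunit mean (6.78 to 7.05) are those with the highest brown adipocyte mean (3.82 to 4.97), and libraries of 1 group lie far apart.

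In lung no subunit was called in any of 12 comparisons by limma, with adjusted p of 0.271 or more. The comparisons ask what PM2.5 does in each state, what each state does in each air, how T1D differs from DIO, and whether the PM2.5 effect differs between states. Of the 13973 genes tested, 0% were called in NDE vs NDC and in DIOE vs DIOC, 0.115% were called higher and 0.0501% lower in T1DE vs T1DC, 0.0644% and 0.0429% in DIOC vs NDC, and 0.0787% and 0.0286% in T1DC vs NDC. They were 0.00716% and 0.0215% in DIOE vs NDE, 0.179% and 0.107% in T1DE vs NDE, 0.0215% and 0.00716% in T1DC vs DIOC, and 0.386% and 0.157% in T1DE vs DIOE. In the differences of PM2.5 effect, 0.00716% were called lower for T1D minus ND and 0% in the rest. Lung calls were thus rare among all genes, and the count of 0 among 82 subunits is near the background. At an unadjusted p under 0.05, 1 subunit was higher in T1DE vs T1DC (background 5.35%), 1 lower in T1DC vs NDC (6.77%) and 16 of 82, 19.5%, lower in T1DC vs DIOC (3.44%); the other 9 comparisons had 0 in either direction, beside 1.65% of all genes in NDE vs NDC, 2.5% of all genes in DIOE vs DIOC, 11.1% of all genes in DIOC vs NDC, 4.91% of all genes in DIOE vs NDE, 12.7% of all genes in T1DE vs NDE, 18.1% of all genes in T1DE vs DIOE, 6.05% of all genes in T1D minus ND in PM2.5 effect, 1.92% of all genes in DIO minus ND in PM2.5 effect and 6.28% in T1D minus DIO in PM2.5 effect.

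T1DC vs DIOC was the lung comparison with the largest shift. Of 82 subunits 2 had an estimate above 0, against 50.9% of all genes, with a median log2 difference of -0.40 against 0.00 over all genes. The complexes did not stand apart, with medians of -0.40 in complex I, -0.48 in complex II, -0.48 in complex III, -0.43 in complex IV and -0.30 in complex V. The libraries of the groups did not overlap for 33 subunits, 40.2%, against 5.44% of all genes. The smallest p in each complex belonged to Cox7a2l (-0.30 ± 0.09, limma adjusted p = 0.400), Ndufs7 (-0.49 ± 0.17), Atp5e (-0.49 ± 0.18), Sdha (-0.59 ± 0.25) and Uqcr11 (-0.56 ± 0.25). Cox8b had the lowest estimate, -2.05. The 16 subunits at an unadjusted p under 0.05 became 4 without DIOC replicate 2 or T1DC replicate 3, 8 without DIOC replicate 1, 35 without DIOC replicate 3 and 37 with the groups alone, and the median ran from -0.53 to -0.28 with 1 library left out. No share of all genes is given for these refits, so their counts cannot be set against a background here. The brown adipocyte mean ran from 0.45 to 0.79 in T1DC and from 0.69 to 4.43 in DIOC, and the general adipocyte mean ran from 3.23 to 4.12 in T1DC and from 3.35 to 6.19 in DIOC. The squamous epithelium mean ran from 4.61 to 5.33 in T1DC and from 0.51 to 6.28 in DIOC. In a fit that held the brown adipocyte mean constant, an alternative added once the data had been seen, the subunit median was -0.00, and with brown, cardiac and skeletal means together it was -0.10. With the skeletal mean alone it was -0.53, and Cox6a1 (-0.71), Cox8a (-0.62) and Sdha (-0.74) were then called lower.

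Other state comparisons in lung had smaller medians. DIOC vs NDC had 0.20 with 80 of 82 estimates above 0, against 42.4% of all genes, and DIOE vs NDE had 0.19. T1DC vs NDC had -0.19, T1DE vs DIOE -0.15 and T1DE vs NDE 0.03. With the brown adipocyte covariate DIOC vs NDC came to 0.07 and T1DC vs NDC turned to 0.07. With the skeletal covariate T1DC vs NDC came to -0.50, where Ndufc1 was called lower (-0.81 ± 0.18, limma adjusted p = 0.0411), DIOC vs NDC came to 0.01, DIOE vs NDE turned to -0.33, T1DE vs DIOE to 0.14 and T1DE vs NDE to -0.20. These medians depended on single libraries. DIOC vs NDC came to 0.08 without DIOC replicate 2, 0.09 without NDC replicate 1, 0.36 without DIOC replicate 3 and 0.37 without NDC replicate 2. DIOE vs NDE came to 0.08 without DIOE replicate 2 or NDE replicate 2, 0.12 without NDE replicate 3, 0.31 without DIOE replicate 3 and 0.35 without NDE replicate 1. T1DC vs NDC came to -0.02 without NDC replicate 2 and -0.32 without NDC replicate 1. T1DE vs DIOE came to 0.03 without T1DE replicate 1, -0.05 without DIOE replicate 2, -0.28 without DIOE replicate 3 and -0.42 without T1DE replicate 2. T1DE vs NDE came to -0.22 without T1DE replicate 2, -0.08 without NDE replicate 2, -0.04 without NDE replicate 3, 0.08 without T1DE replicate 3 and 0.21 without T1DE replicate 1 or NDE replicate 1. These comparisons share groups with each other. The smallest adjusted p among subunits was that of Cox7a2l in T1DC vs NDC, 0.271, where the 3 T1DC libraries read 172, 172 and 151 FPKM and the 3 NDC libraries 187, 212 and 202 without overlap.

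PM2.5 comparisons in lung gave subunit medians of -0.00 in ND, -0.02 in DIO and 0.22 in T1D, with all-gene medians of -0.04, -0.00 and -0.00. In T1DE vs T1DC 77 of 82 estimates were above 0, against 49.2% of all genes, and the value rested on 1 library: without T1DE replicate 2, the library highest in the brown adipocyte mean, the median was -0.03, and without T1DE replicate 1 it was 0.42. Cox8b, at 1.00, had the highest estimate and Cox7a2l the lowest unadjusted p (0.045). Differences of PM2.5 effect between states had medians of 0.23 for T1D minus ND, -0.01 for DIO minus ND and 0.23 for T1D minus DIO, and no subunit reached an unadjusted p under 0.05. Without T1DE replicate 2 the former and the latter came to -0.03 and -0.02. DIO minus ND ranged from -0.19 without NDC replicate 2 to 0.16 without NDE replicate 1.

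**Figure D4:**
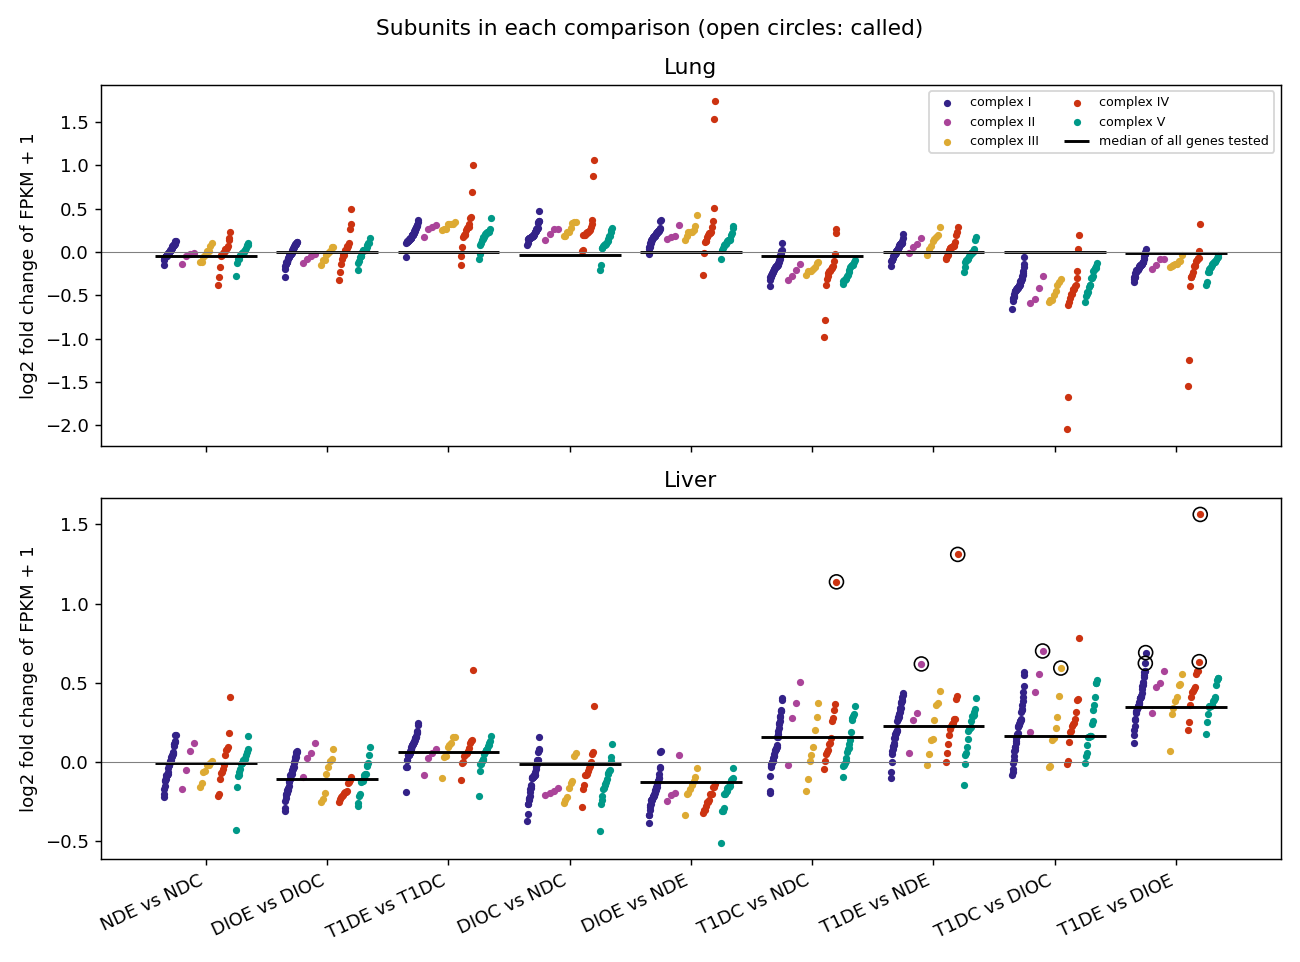
Log2 fold change of FPKM + 1 for each tested subunit in 9 comparisons in lung (top, 82 genes) and liver (bottom, 79 genes), by complex from I at the left to V at the right; black lines are the median over all genes tested and open circles mark called subunits. In T1DC vs DIOC nearly all lung points lie below the all-gene line (median -0.40 against 0.00), with Cox8b at -2.05 the lowest, and in T1DE vs DIOE the liver points lie about a raised all-gene line (0.41 against 0.35).

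In liver the T1D groups read higher than ND and DIO in most subunits, and so did genes in general. In T1DE vs DIOE all 79 tested subunits had an estimate above 0, as did 89.6% of all genes, with a median log2 difference of 0.41 against 0.35 over all genes. The medians were 0.23 against 0.23 in T1DE vs NDE, 0.23 against 0.16 in T1DC vs DIOC and 0.09 against 0.16 in T1DC vs NDC. With median-ratio scaling the all-gene medians moved to between -0.02 and -0.00, and the subunit medians to -0.04, -0.05, 0.02 and -0.10 in the same order. Genes listed at 0 numbered 3386 to 4803 of 20098 in T1DC and 3565 to 3744 in T1DE, against 4717 to 5415 in the other 12 liver libraries. Only T1DC replicate 2, at 4803, lay within the range of the ND and DIO libraries. The part of this in the results was not tested.

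The calls in liver were few and all upward. In T1DE vs DIOE 4 subunits were called (5.06% of 79), while 17.6% of the 10806 genes tested were called higher and 1.38% lower. Ndufs5, an accessory subunit of complex I, read 110, 113 and 124 FPKM in T1DE and 69.1, 83.5 and 71.8 in DIOE, a log2 change of 0.62 ± 0.12 (limma adjusted p = 0.000875), lost without DIOE replicate 1 or T1DE replicate 3. Cox6b1, which sits at the dimer face of complex IV, read 373, 360 and 429 against 269, 266 and 215, a change of 0.63 ± 0.12, lost without DIOE replicate 3 or T1DE replicate 3. Ndufb6, another accessory subunit, read 77.7, 81.3 and 114 against 52.5, 63.1 and 50.6, a change of 0.69 ± 0.16, lost without T1DE replicate 3. The T1DE and DIOE libraries did not overlap in any of these genes. An adjusted p under 0.05 alone, at any fold, was met by 69 of 79 subunits (87.3%), against 56.7% of all genes tested, and 72 subunits (91.1%) had no overlap between groups, against 66% of all genes. By complex the 69 with an adjusted p under 0.05 were 32 of 37 in complex I, 4 of 4 in II, 7 of 8 in III, 11 of 13 in IV and 15 of 17 in V. With median-ratio scaling only Cox6b2 was called; Ndufs5 then stood at 0.18, Cox6b1 at 0.18 and Ndufb6 at 0.25. The smallest p in complex I belonged to Ndufa8 (0.54 ± 0.10, adjusted p = 0.000764), under the fold limit, which stood at 0.09 with median-ratio scaling (adjusted p = 0.510). The 69 subunits with an adjusted p under 0.05 became 1 higher and 1 lower with median-ratio scaling and 15 higher with quantile scaling, and 43 higher without T1DE replicate 3.

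In T1DE vs NDE 2 subunits were called, 2.53% of 79, against 8.25% of all genes called higher and 1.26% lower. Sdhb, the iron-sulfur subunit of succinate dehydrogenase, read 234, 241 and 257 FPKM in T1DE and 190, 164 and 127 in NDE without overlap, a change of 0.62 ± 0.16 (limma adjusted p = 0.0101). An adjusted p under 0.05 at any fold was met by 21 subunits (26.6%, background 28.6%), of which 13 belonged to complex I, 3 to complex III and 3 to complex IV. With median-ratio scaling these became 0 higher and 3 lower, and with quantile scaling 4 higher and 1 lower. Leaving out 1 library gave 3 to 16 higher (3 without NDE replicate 3 or T1DE replicate 1, 4 without T1DE replicate 3 and 7 without NDE replicate 2). The others that led their complex by p were Ndufa9 (0.39 ± 0.12), Uqcrc2 (0.45 ± 0.12) and Atp5f1 (0.41 ± 0.11). With median-ratio scaling they stood at 0.10, 0.15 and 0.11, with limma adjusted p of 0.666, 0.397 and 0.535. Sdhb was not called without NDE replicate 3, without T1DE replicate 3, or with either scaling (0.32 with median-ratio, 0.54 with quantile).

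In T1DC vs DIOC 2 subunits were called, 2.53%, against 5.74% of all genes called higher and 0.861% lower. Sdha, the flavoprotein of succinate dehydrogenase, read 219, 182 and 228 FPKM in T1DC and 124, 139.8 and 121 in DIOC, a change of 0.70 ± 0.12 (limma adjusted p = 0.00241). Uqcrc1, a core protein of complex III, read 173, 137 and 207 against 112, 129 and 97.5, a change of 0.59 ± 0.15 (adjusted p = 0.0140), lost without DIOC replicate 3 or T1DC replicate 1 or 3, with the compared groups fitted alone, and with median-ratio (0.38, adjusted p = 0.0877) or quantile scaling (0.43, adjusted p = 0.0710). In both genes every T1DC library was above every DIOC library. An adjusted p under 0.05 at any fold was met by 16 subunits (20.3%, background 14.3%), 3 of the 4 of complex II among them, and the complex II median of 0.50 was above those of the other complexes (0.17 to 0.24). The 16 became 1 with median-ratio scaling, 4 with quantile scaling and 1 with the groups alone, and of complex II only Sdha then met it with either scaling. Leaving out 1 library gave 2 to 31 (2 without T1DC replicate 1, 4 without DIOC replicate 1, 6 without T1DC replicate 3, 7 without DIOC replicate 3 and 31 without T1DC replicate 2). With median-ratio scaling the complex II median was 0.28 and those of the others lay between -0.03 and 0.03. Sdha kept an adjusted p of 0.0101 with median-ratio scaling, at a change of 0.49 that is under the fold limit, as is its 0.54 with quantile scaling. Atp5a1 (0.50 ± 0.11) and Ndufs1 (0.55 ± 0.13) led complexes V and I by p, and with median-ratio scaling stood at 0.29 (limma adjusted p = 0.0823) and 0.33 (0.0512).

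In T1DC vs NDC 1 subunit was called, 1.27%, against 4.39% of all genes called higher and 0.824% lower. It was Cox6b2, which was called in every comparison of T1D with ND or DIO in the same air other than T1DC vs DIOC. Cox6b2 read 3.47, 1.39 and 4.41 FPKM in T1DC, 6.35, 3.74 and 4.56 in T1DE, 1.56, 0.24 and 0.71 in NDC, 0.60, 1.21 and 2.59 in NDE, 0.83, 1.18 and 1.84 in DIOC, and 0.47, 0.71 and 1.99 in DIOE. Each T1DE library was above every ND and DIO library, and T1DC replicate 2 lay among them. Its log2 changes of FPKM + 1 were 1.14 ± 0.36 in T1DC vs NDC (limma adjusted p = 0.0459), 1.31 ± 0.36 in T1DE vs NDE (0.0142), 1.56 ± 0.36 in T1DE vs DIOE (0.00261) and 0.78 in T1DC vs DIOC, where it was not called. T1DC replicate 2 was also the T1D library with the most genes at 0, 4803. These levels are near the filter's minimum of 1 FPKM. The T1DC vs NDC call was lost in 9 of 13 alternatives: without NDC replicate 2 or 3, without T1DC replicate 1 or 3, with a pseudocount of 0.1, without the filter, with the groups alone, and with median-ratio (0.99, adjusted p = 0.1002) or quantile scaling (0.93, adjusted p = 0.103). The T1DE vs NDE call was lost in 4 of 13, without NDE replicate 1 or T1DE replicate 1 and with median-ratio (1.08, adjusted p = 0.0529) or quantile scaling (1.02, adjusted p = 0.0597). The T1DE vs DIOE call was kept under each alternative run. An adjusted p under 0.05 at any fold was met by 2 subunits in T1DC vs NDC (2.53%, background 12%). Sdha met adjusted p in that comparison (0.51 ± 0.12, adjusted p = 0.0172) without reaching the fold limit, and no longer met it with median-ratio scaling (0.31, adjusted p = 0.0818). The 2 became 19 without T1DC replicate 2, 0 without T1DC replicate 1 or 3 or NDC replicate 3, 0 with median-ratio scaling or the groups alone, and 1 with quantile scaling, no filter or a pseudocount of 0.1.

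**Figure D5:**
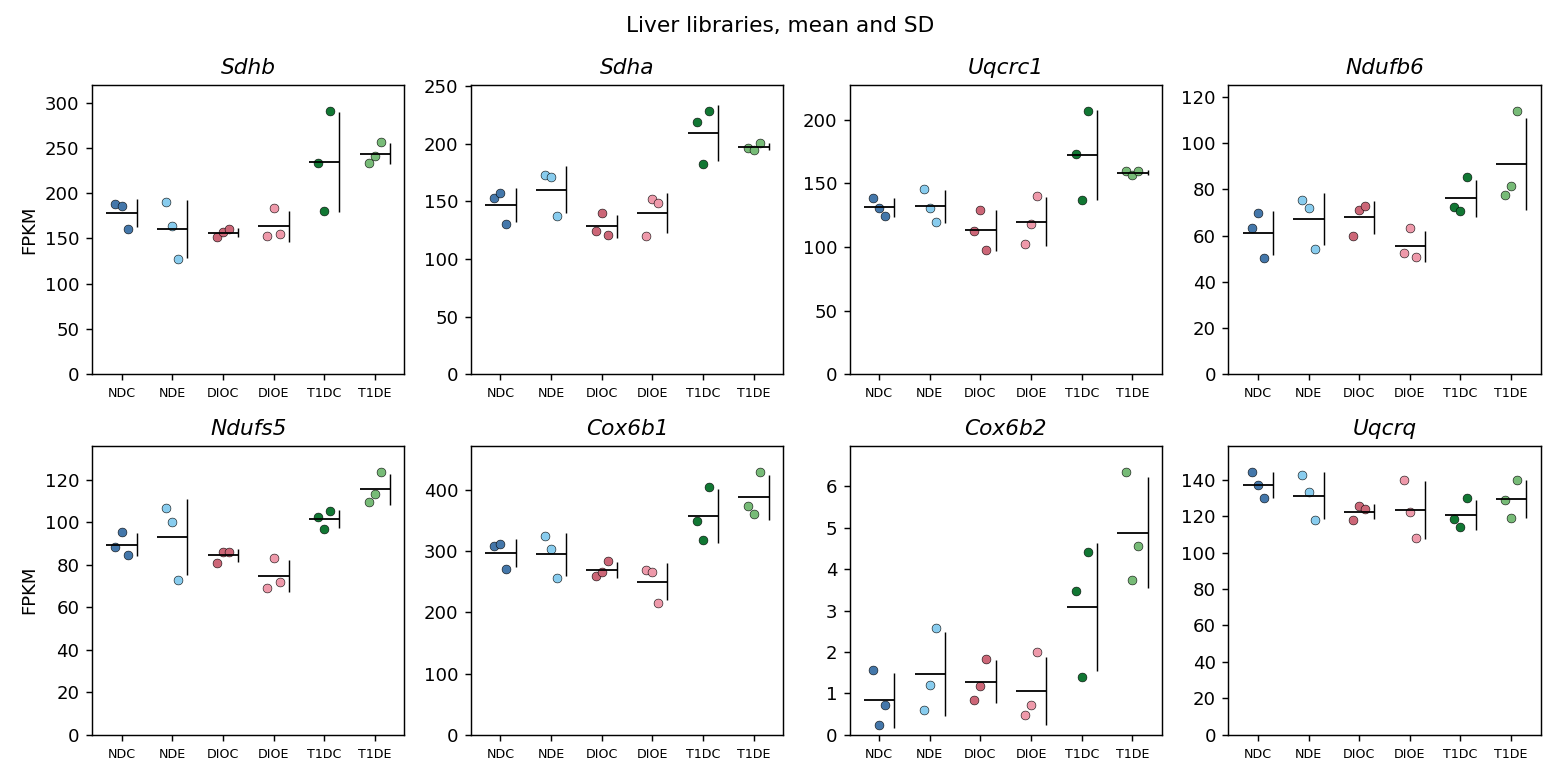
FPKM in each liver library by group (points, in replicate order) with the mean (line) and SD (bar, n = 3) for the 7 subunits called in a T1D comparison and for Uqcrq, which had the lowest estimate in T1DE vs DIOE (0.07). Vertical axes start at 0. In all 7 called subunits the 3 T1DE libraries lie above all ND and DIO libraries, and those of Uqcrq lie among them. The genes shown were picked by their calls or estimates in these same libraries. In T1DE vs DIOE 66% of all genes tested were higher in T1DE without overlap.

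The diet and PM2.5 comparisons of liver gave no called subunit by limma. In DIOC vs NDC the median was -0.10 against -0.01 over all genes, with 15 of 79 estimates above 0 (46.7% of all genes), 6 subunits lower at an unadjusted p under 0.05 (background 9.14%) and 20 without overlap, 25.3% against 11.2% of all genes; 0.666% of all genes were called higher and 0.842% lower. In DIOE vs NDE the median was -0.19 against -0.12, with 3 of 79 estimates above 0 (23.2% of all genes) and 11 lower at an unadjusted p under 0.05 (13.9%, background 16.5%); 0.333% of all genes were called higher and 0.666% lower. With median-ratio scaling these medians were -0.08 and -0.04, and the counts at an unadjusted p under 0.05 were 8 and 2. With 1 library left out the counts ran from 2 to 12 in DIOC vs NDC (2 without DIOC replicate 1 or NDC replicate 1, 12 without NDC replicate 3) and from 3 to 39 in DIOE vs NDE (3 without NDE replicate 1, 5 without NDE replicate 2, 17 without DIOE replicate 2 and 39 without NDE replicate 3). The counts under scaling and with a library left out are given without the share of all genes in the same fits. Atp5sl, which RefSeq names Dmac2, led both by p. It read 10.2, 13.3 and 10.5 FPKM in DIOC against 16.1, 17.3 and 13.6 in NDC, a difference of -0.44 (adjusted p = 0.0884; 0.0382 with median-ratio and 0.0349 with quantile scaling, at -0.42 and -0.41, under the fold limit), and 9.47, 11.4 and 11.1 in DIOE against 16.6, 16.4 and 13.8 in NDE, a difference of -0.51 (adjusted p = 0.0666; 0.116 and 0.0871 with these scalings). All 6 DIO libraries were below all 6 ND libraries in this gene.

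For PM2.5, the subunit medians in liver were -0.01 in ND, -0.11 in DIO and 0.08 in T1D, against all-gene medians of -0.00, -0.11 and 0.07. At an unadjusted p under 0.05, 2 subunits were lower in NDE vs NDC (background 2.72%), 4 lower in DIOE vs DIOC (12.5%) and 0 in either direction in T1DE vs T1DC (11.8%). Calls over all genes were 0.00925% higher and 0% lower in NDE vs NDC, 0% in DIOE vs DIOC, and 0.629% higher and 0.287% lower in T1DE vs T1DC. Atp5s had the smallest p in NDE vs NDC, at 2.94, 2.50 and 3.28 FPKM in NDE against 4.59, 4.04 and 4.11 in NDC without overlap, a difference of -0.43 (limma adjusted p = 0.530). The differences of PM2.5 effect had no called subunit; at an unadjusted p under 0.05, 2 subunits were higher for T1D minus ND (background 7.28%), 5 higher for T1D minus DIO (16%) and 1 lower for DIO minus ND (5.03%), with 0.231% and 0.185%, 0.268% and 0.0648%, and 0% of all genes called higher and lower in that order.

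Related mitochondrial genes were read in liver on lists chosen with earlier results of these data known. In T1DE vs DIOE, where 17.6% of all genes were called higher, 7 of 44 assembly factors (15.9%), 4 of 77 genes of the mitochondrial ribosome (5.19%) and 1 of 8 other chain parts (12.5%) were called higher, shares at or below that background. The counts were 4 of 14 genes of the tricarboxylic acid cycle (28.6%), 3 of 13 regulators of mitochondrial biogenesis (23.1%) and 3 of 8 nucleotide carriers and uncoupling proteins (37.5%), with none lower in any of these lists. The medians ran from 0.35 to 0.49 against 0.35 over all genes. With median-ratio scaling 2 assembly factors and 1 other chain part were called higher, 1 assembly factor lower and no gene of the remaining lists, and the medians ran from -0.09 to 0.16. Coa6, an assembly factor that serves the copper centre of complex IV, changed by 1.17 ± 0.12 in T1DE vs DIOE and 1.01 ± 0.12 in T1DE vs NDE (limma adjusted p = 1.16e-05 and 8.57e-05), and was still called with median-ratio scaling (0.73 and 0.72). Sdhaf1, which inserts iron-sulfur clusters into Sdhb, changed by 1.02 ± 0.11 and 0.72 ± 0.11, and the former was still called with that scaling (0.60). Atpif1, the inhibitor of complex V's reverse reaction, changed by 1.12 ± 0.18 and 0.97 ± 0.18, and both were still called (0.73 and 0.71). Ppargc1a, a coactivator of mitochondrial biogenesis, changed by 1.19 ± 0.30 in T1DE vs NDE (adjusted p = 0.00913), and was not called with quantile scaling (0.91, adjusted p = 0.0608). Its call in T1DE vs DIOE (0.96 ± 0.30, adjusted p = 0.0134) was lost with median-ratio (0.62) and quantile (0.55) scaling.

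The remaining T1D comparisons of liver gave fewer. In T1DC vs DIOC, with 5.74% of all genes called higher, 2 of 44 assembly factors (4.55%), 1 of 77 ribosomal genes (1.3%), 1 of 13 regulators (7.69%), 1 of 8 other chain parts (12.5%) and 3 of 14 cycle genes (21.4%) were called higher. In T1DE vs NDE, with 8.25% of all genes called higher, the counts were 2 of 44 assembly factors (4.55%), 1 of 14 cycle genes (7.14%), 1 of 13 regulators (7.69%), 1 of 8 carriers (12.5%) and 1 of 8 other chain parts (12.5%). In T1DC vs NDC, with 4.39% of all genes called higher, Atpif1 was the only gene of these lists called (0.67 ± 0.18, limma adjusted p = 0.0272), and it was not called with median-ratio (0.50, adjusted p = 0.0966) or quantile scaling (0.48, adjusted p = 0.113). The cycle list kept a median above that of all genes in T1DC vs DIOC under every scaling (0.46 as deposited, 0.25 with median-ratio and 0.28 with quantile scaling). In lung, Coa4, an assembly factor of complex IV, was called lower in T1DE vs T1DC (-0.59 ± 0.11, limma adjusted p = 0.0467), T1DE vs NDE (-0.65 ± 0.11, adjusted p = 0.0160) and T1DE vs DIOE (-0.62 ± 0.11, adjusted p = 0.0265). With median-ratio scaling it was called in all 3 (-0.59, -0.66 and -0.60), and with quantile scaling only in T1DE vs NDE (-0.63). It was the only gene of these lists called in a lung comparison, 1 of 45 assembly factors (2.22%). Of all genes, 0.0501%, 0.107% and 0.157% were called lower in these comparisons in the same order. The 3 comparisons share the T1DE libraries. In lung T1DC vs DIOC the cycle list's median was -0.53 with all 14 estimates below 0, and the ribosomal list's was -0.13. Over all genes the median was 0.00, and 50.9% of estimates were above 0. The marker covariates and the fits without single libraries, which moved the subunit median of this comparison, were read for the subunits only.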

How the data were processed

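RNA sequencing of 18 lung and 18 liver libraries was used. The authors sequenced poly(A)-selected RNA on a BGISEQ-500 and deposited FPKM per gene from RSEM, written to 2 decimals, after SOAPnuke filtering and Bowtie2 alignment (GRCm38). For strand, gene annotation and tool versions the sources used here give nothing. Depth is unknown, since the deposited FPKM values carry no counts, and the sums per library, 500813 to 581171, do not give it. No further scaling between libraries was stated.

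Groups came from the sample titles. From the deposited FPKM, log2(FPKM + 1) was computed, and a gene entered a tissue's fit if 3 of its libraries reached 1 FPKM, 13973 genes in lung (82 subunits) and 10806 in liver (79). limma 3.58.1 in R 4.3.3 fitted 6 group means per tissue, all 18 libraries sharing the spread, or 12 group means over 36 libraries for the tissues, with eBayes and trend. Tests were two-sided, adjusted by Benjamini-Hochberg over all genes of a comparison, and p-values measure only the spread between these samples. A fold of FPKM + 1 understates the change of low genes. The script was tested on simulated data.

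The members and the lists were chosen with earlier results of these data known, and the brown adipocyte covariate and the TATAAA search were added after the data had been seen. Named were the called subunits, the highest and lowest subunit of each complex, the subunit of smallest p in each complex and comparison, the isoforms, and up to 4 genes of smallest p per list; the mitochondrial DNA's own subunits were not analysed here. Results were recomputed with median-ratio or quantile scaling, with 0.1 as pseudocount, without the filter, without the fold limit, with only the compared groups, with a replicate block, with each library left out, and with marker means as covariates in lung. Replicate numbers were not treated as pairs: in none of 18 pairs of groups did every same-numbered pair correlate above 0.1. The paper matched mice of each state into pairs by body weight before the exposure groups were made. The sample labels do not name these pairs, and the correlations cannot show that they are absent. No 2 libraries were identical. Python 3.11.15 drew the figures.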

Additional observations from a re-analysis of the deposited data

How the results depend on the processing

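The count of called subunits moved by over 1.5 times in 37 of 397 recomputed counts, 3 of 210 in lung and 33 of 174 in liver. Every lung comparison and most liver comparisons started from 0 calls, so the pooled share does not measure how stable the existing calls are. In lung the count stayed 0 in 207 of 210. With the skeletal muscle covariate it was 1 in T1DC vs NDC (Ndufc1, lower) and 3 in T1DC vs DIOC (all lower). With the brown adipocyte covariate, chosen after seeing the data, it was 1 in T1DE vs DIOE (Cox8b, lower). In liver, median-ratio and quantile scaling gave 0 in T1DC vs NDC, T1DE vs NDE and T1DC vs DIOC and 1 in T1DE vs DIOE. Without the fold limit these comparisons had 2, 21, 16 and 69 calls. A pseudocount of 0.1, no filter and the groups alone each gave 0 in T1DC vs NDC, and the groups alone gave 1 in T1DC vs DIOC. Leaving out 1 library gave 0 to 2 calls in T1DC vs NDC, 1 to 2 in T1DE vs NDE, 1 to 9 in T1DC vs DIOC (9 without T1DC replicate 2) and 2 to 13 in T1DE vs DIOE (2 without T1DE replicate 3, 13 without DIOE replicate 2 or T1DE replicate 2). Between tissues the count was 43, 80 with median-ratio scaling and 30 to 56 with 1 library left out; Cox7a2l turned to -0.31 with median-ratio scaling. The replicate block changed no count of subunits (0, 1, 2, 2, 4 and 43 calls as without it), and it took those with an adjusted p under 0.05 at any fold in T1DE vs NDE from 21 to 12. The cause of these changes was not tested. Shares of all genes were set beside the counts of the main fits only, so recomputed counts stand without a background. The motif shares within the 250 bases before the start alone, the window looked at before the full one, were 10 of 69 subunits against 3.68% of all genes for the NRF1 core and 12 of 69 against 7.83% for the ETS core. With 3 libraries a group and no counts, the precision of levels near 1 FPKM is unknown.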
